A study of Mus musculus with 6 samples.

Results

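The promoters of 10 lymphoid cytokine and growth factor receptor genes (*Il7r*, *Il2ra*, *Il2rb*, *Il2rg*, *Kit*, *Flt3*, *Crlf2*, *Il4ra*, *Il21r* and *Il15ra*) were examined for trimethylation of histone H3 at lysine 4 (H3K4me3) in a T-cell and a B-cell progenitor line of the mouse. The genes were chosen by name, with earlier results of these data known, as receptors through which early lymphocytes receive growth signals. They are 10 of the 21938 protein-coding genes to which the same rule was applied. By this rule a promoter is the region 2500 bp either side of every transcription start site (TSS) that GENCODE vM21 annotates for the gene on GRCm38, and it is marked when a peak covers at least 1 bp of it. The study performed H3K4me3 ChIP-seq in 2 established lines, Scid.adh.2C2 and an Abelson pre-B line, with 2 ChIP libraries and 1 input library for each. Scid.adh.2C2 was subcloned from Scid.adh, which arose from a thymic tumour of a mouse with the SCID mutation, and stands for the DN3 stage of thymocytes. The pre-B line is a mouse line transformed with the Abelson virus. Neither culture medium is stated to have held an added cytokine, no treatment separates the lines, and each lineage is represented by 1 transformed line, so that lineage, clone and transformation cannot be told apart.

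H3K4me3 is laid down around the start sites of genes that are active or ready for transcription. Most of the interleukin receptors examined here can include the common γ chain, encoded by *Il2rg*, and then pass their signal through JAK1, JAK3 and STAT factors. Signals through the IL-7 receptor are needed for early B and T cells to survive and divide, whereas the α chain of the IL-2 receptor, CD25, is the classical surface marker of the DN2 and DN3 thymocyte stages. KIT and FLT3 are class III receptor tyrosine kinases of hematopoietic progenitors that bind stem cell factor and FLT3 ligand.

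For each line 1 peak list combining both ChIP libraries was analysed, with 15513 peaks for Scid.adh.2C2 and 19604 for the pre-B line. The lists hold neither read counts nor a value per library, so that neither depth nor replicate spread is known and no difference between the lines was tested. The height of a peak is its fold enrichment over the local background of the input. Over all peaks it had a median of 20.3 for Scid.adh.2C2 against 15.4 for the pre-B line, and heights are therefore given with their percentile in the list of the line. The labels were checked against lineage markers. Of 15 T cell markers, 12 were marked in Scid.adh.2C2 against 6 in the pre-B line, with 7 in Scid.adh.2C2 only, led by *Cd3e* (41.5-fold), *Gata3* (39.9-fold) and *Thy1* (38.6-fold). *Cd5* was marked in the pre-B line only (9.50-fold), and of the 5 marked in both *Cd3d* and *Tcf7* had the highest percentiles summed over the lists. Some of the others of these 5 stood at a higher percentile in the pre-B line than in Scid.adh.2C2. All 15 B cell markers were marked in the pre-B line and 4 in Scid.adh.2C2, with *Cd79b* (29.0-fold) and *Cd79a* (27.9-fold) among the 11 found in the pre-B line only, and *Btk* and *Vpreb1* highest by this sum among the 4 in both. Both were higher in Scid.adh.2C2 than in the pre-B line. *Btk* reached 34.3-fold (percentile 91.3) against 24.7-fold (86.0), and *Vpreb1* 29.9-fold (80.4) against 21.2-fold (73.2). The others of the 4 stood at a higher percentile in the pre-B line. Of 10 myeloid markers, 8 were unmarked in both lines, the exceptions being *Fcgr3* (6.51-fold in Scid.adh.2C2) and *Cebpe* (marked in both).

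The promoter sequences of 9 of the 10 genes were found in RefSeq (GRCm38.p6, 250 bases before to 50 after the RefSeq start). The following 5 show the range among the receptors. *Il7r* was marked in both lines, with the start sites inside the peak in Scid.adh.2C2 only. *Il2ra* was marked in Scid.adh.2C2 only, *Il4ra* and *Il21r* in the pre-B line only and *Kit* in neither. Capitals mark CG dinucleotides (CpG), whose density is a main sequence feature of H3K4me3-marked promoters.
Il7r, chr15:9529827-9530126, minus strand: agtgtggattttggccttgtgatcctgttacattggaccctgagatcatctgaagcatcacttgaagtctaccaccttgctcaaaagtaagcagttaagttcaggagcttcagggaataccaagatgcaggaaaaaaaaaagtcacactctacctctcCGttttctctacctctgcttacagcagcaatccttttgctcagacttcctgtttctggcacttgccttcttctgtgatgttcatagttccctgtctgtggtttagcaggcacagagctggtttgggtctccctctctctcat
Il2ra, chr2:11642542-11642841, plus strand: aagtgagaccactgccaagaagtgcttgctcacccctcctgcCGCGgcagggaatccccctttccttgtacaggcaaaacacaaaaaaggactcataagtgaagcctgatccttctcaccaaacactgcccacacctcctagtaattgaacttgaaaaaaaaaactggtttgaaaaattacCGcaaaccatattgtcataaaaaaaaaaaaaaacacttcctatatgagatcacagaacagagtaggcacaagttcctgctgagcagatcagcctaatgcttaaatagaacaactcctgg
Il4ra, chr7:125552021-125552320, plus strand: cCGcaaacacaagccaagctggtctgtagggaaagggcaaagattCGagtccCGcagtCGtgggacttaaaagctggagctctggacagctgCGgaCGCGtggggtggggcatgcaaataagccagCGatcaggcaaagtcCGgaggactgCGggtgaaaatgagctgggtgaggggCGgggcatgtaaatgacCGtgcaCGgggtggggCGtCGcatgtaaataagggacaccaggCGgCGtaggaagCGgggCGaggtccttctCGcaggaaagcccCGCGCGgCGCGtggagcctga
Il21r, chr7:125603179-125603478, plus strand: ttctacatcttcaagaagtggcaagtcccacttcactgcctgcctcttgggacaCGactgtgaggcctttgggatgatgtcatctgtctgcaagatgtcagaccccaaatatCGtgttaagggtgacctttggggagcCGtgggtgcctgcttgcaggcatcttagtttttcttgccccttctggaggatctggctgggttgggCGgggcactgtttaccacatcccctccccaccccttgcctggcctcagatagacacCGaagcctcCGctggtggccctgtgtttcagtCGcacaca
Kit, chr5:75574737-75575036, plus strand: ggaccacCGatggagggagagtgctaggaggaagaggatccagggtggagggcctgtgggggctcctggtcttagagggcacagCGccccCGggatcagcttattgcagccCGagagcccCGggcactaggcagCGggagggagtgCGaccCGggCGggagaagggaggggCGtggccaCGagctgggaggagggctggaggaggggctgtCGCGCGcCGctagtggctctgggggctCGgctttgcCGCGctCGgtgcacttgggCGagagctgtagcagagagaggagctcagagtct

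CpG content differed widely among the 9 promoters. *Il7r* held 1 CpG in 300 bases, *Il2ra* and *Il2rg* 3 each, *Il15ra* 6, *Il21r* 7, *Flt3* 18, *Kit* 20, *Il4ra* 25 and *Crlf2* 31. Relative to the number expected from the base composition, CpG ranged from 0.065 in *Il7r* to 0.93 in *Il4ra*. The median ratio was 0.80 for RefSeq promoters of genes marked in both lines and 0.26 for those marked in neither. The receptors did not sort by this feature, since *Il7r*, *Il2rg* (0.16) and *Il15ra* (0.29) lay near or below the unmarked median and were marked in both lines, whereas *Kit*, at 0.62, was marked in neither. Of 7943 promoters with a ratio at least that of *Kit*, 19.2% belonged to genes unmarked in both lines.

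Of the 10 receptors, 6 were marked in Scid.adh.2C2 (exact 95% binomial interval 26.2% to 87.8%, covering counting error only), where 45.5% of all protein-coding genes were marked. In the pre-B line, 7 were marked (34.8% to 93.3%), against 48.2% of all genes. *Il7r*, *Crlf2*, *Il2rg*, *Il15ra* and *Flt3* were marked in both lines, a state shared by 42.2% of all genes. *Il2ra* was marked in Scid.adh.2C2 only, as were 3.28% of all genes. *Il4ra* and *Il21r* were marked in the pre-B line only, as were 5.97% of all genes. *Il2rb* and *Kit* had no promoter peak in either line, as was the case for 48.5% of all genes. Unmarked means only that the peak calling of the authors listed nothing in the window, and a low level of the mark there was not measured. The receptors lie partly in pairs, with *Il2ra* next to *Il15ra* on chromosome 2 and *Il4ra* next to *Il21r* on chromosome 7, so the 10 promoters are not 10 separate loci.

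**Figure D1:**
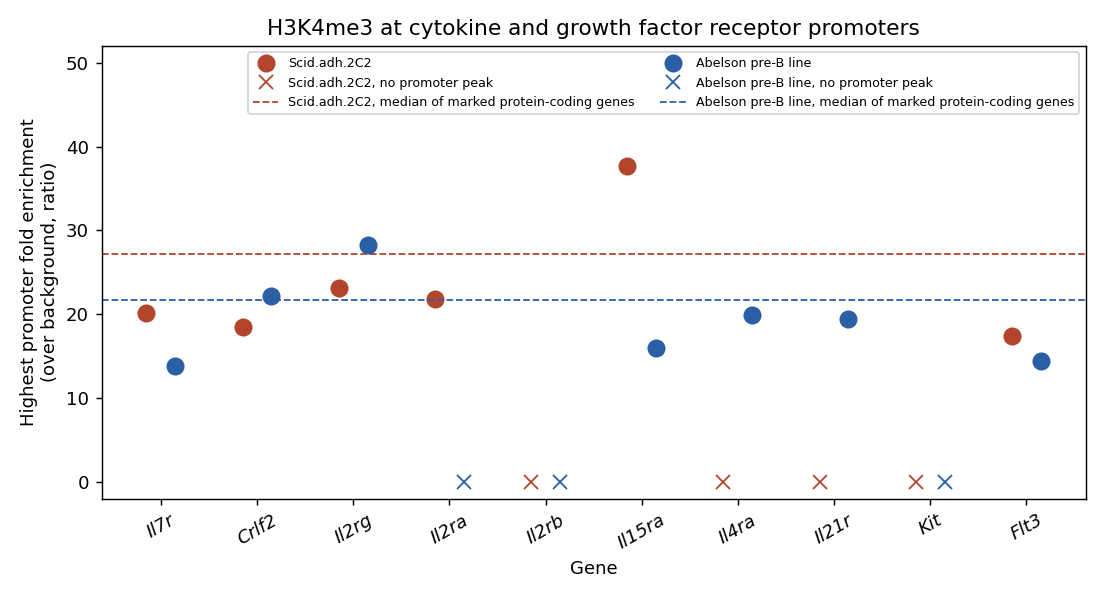
Highest fold enrichment of H3K4me3 (vertical axis, ratio over background) at each receptor promoter (horizontal axis), with 1 point for each line, crosses at 0 for promoters without a peak and dashed lines at the median of marked protein-coding genes of the line. The 6 values of Scid.adh.2C2 range from 17.4 to 37.7 and the 7 values of the pre-B line from 13.9 to 28.3, and only *Il15ra* in Scid.adh.2C2 and *Crlf2* and *Il2rg* in the pre-B line lie above the median of their line.

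By fold enrichment, the marked receptors were mostly of middle height among all peaks of their list and of low to middle height among marked genes. Their median fold enrichment was 20.9 in Scid.adh.2C2, where that of all 9980 marked genes was 27.1, and 19.4 in the pre-B line, where that of all 10570 marked genes was 21.7. On the scale of list percentiles, the medians in Scid.adh.2C2 were 51.6 for the receptors and 71.2 for all marked genes. In the pre-B line they were 65.7 and 75.2. *Il7r*, *Crlf2* and *Flt3* in Scid.adh.2C2 lay below the first quartile of all marked genes (21.6-fold). So did *Il7r*, *Flt3* and *Il15ra* in the pre-B line (17.6-fold). *Il15ra* in Scid.adh.2C2 and *Crlf2* and *Il2rg* in the pre-B line lay above the median of all marked genes.

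*Il7r*, the α chain of the receptors for IL-7 and TSLP, carried a peak of 20.1-fold in Scid.adh.2C2 (percentile 49.2) and of 13.9-fold in the pre-B line (percentile 44.0). Ranked by −log10 q, the same peaks stood at percentiles 86.2 and 52.1. The pre-B peak lay wholly inside that of Scid.adh.2C2, and the lines differed mainly at the upstream edge. The peaks overlapped by 76.5% of their union, where the median over all genes marked in both lines was 79.8%. Of these genes, 42.5% had at most this overlap. In Scid.adh.2C2 the peak spanned chr15:9527042-9530485, 3444 bp that included all 4 annotated TSSs and the whole of the RefSeq promoter printed above. In the pre-B line it spanned chr15:9527112-9529745, 2634 bp that began 90 bp downstream of the most upstream protein-coding TSS and contained neither an annotated TSS nor any base of the printed promoter. Its summit lay 262 bp from the nearest annotated TSS and 331 bp from this protein-coding TSS. The peak edge therefore missed the nearest annotated TSS by less than 90 bp. A marked promoter with no TSS inside a peak was found for this 1 of the 7 marked receptors in the pre-B line, against 6.69% of all marked genes, and for 0 of 6 in Scid.adh.2C2, against 5.81%. The summits lay 964 bp apart, both in an intron, and 13.7% of the genes marked in both lines had summits at least as far apart. The 151 bases centred on each summit, shown because the strongest signal moved between them, are given on the minus strand with capitals for GGAA or TTCC, the core recognised by ETS factors.
Il7r summit in Scid.adh.2C2, chr15:9528465-9528615: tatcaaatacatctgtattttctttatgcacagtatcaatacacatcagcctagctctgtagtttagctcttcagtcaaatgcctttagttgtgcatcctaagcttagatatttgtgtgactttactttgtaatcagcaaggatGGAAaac
Il7r summit in the pre-B line, chr15:9529429-9529579: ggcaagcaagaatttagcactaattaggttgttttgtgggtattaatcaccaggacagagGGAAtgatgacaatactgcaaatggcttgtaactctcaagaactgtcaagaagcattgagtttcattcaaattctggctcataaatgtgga

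Neither window held a CpG, and each held 1 ETS core. A further peak of 6.82-fold and 889 bp began 2970 bp downstream of the same TSS in Scid.adh.2C2 only. The promoter of *Il7r* was the only 1 of the 9 to hold the STAT motif TTCNNNGAA, which was present in 8.47% of 27025 promoters of this length.

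*Crlf2*, whose product pairs with the IL-7 receptor α chain to bind TSLP, had the same arrangement in both lines. A peak of 18.4-fold and 1113 bp lay over the start site in Scid.adh.2C2 (percentile 44.9), and 1 of 22.2-fold and 1130 bp in the pre-B line (percentile 77.0). A wider and lower peak followed after a gap of 119 bp in Scid.adh.2C2 (13.9-fold, 2177 bp) and of 214 bp in the pre-B line (15.4-fold, 2300 bp). The summits of the higher peaks were 2 bp apart, and the covered bases of the lines overlapped by 90.6% of their union, where the median over all genes marked in both was 79.8%.

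*Il2rg*, encoding the common γ chain, was covered by 1 peak in each line. It reached 23.2-fold in Scid.adh.2C2 (percentile 58.5) and 28.3-fold in the pre-B line (percentile 94.9), the highest promoter value of any of the receptors in that line. The peaks were 2138 bp and 2131 bp wide, included all 4 TSSs, had summits 10 bp apart and overlapped by 94.0% of their union. The promoter window of the read-through gene *Gm20489* holds the same peak, so the peak cannot be assigned to *Il2rg* alone.

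**Figure D2:**
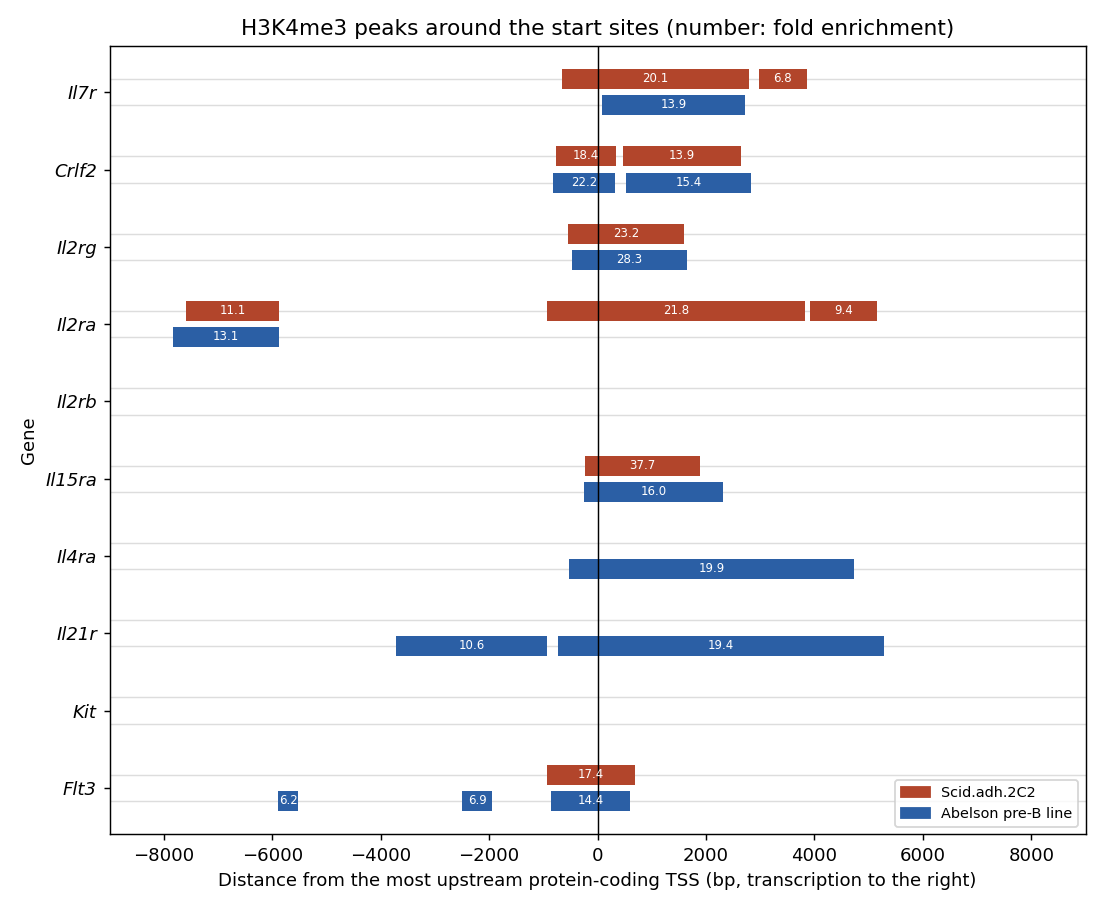
Peaks of both lines within 9000 bp of the most upstream protein-coding TSS of each receptor (horizontal axis, distance in bp with transcription to the right; vertical axis, gene), with the fold enrichment written in each box. The *Il7r* peak covers the start site in Scid.adh.2C2 and begins 90 bp after it in the pre-B line, *Il2ra*, *Il4ra* and *Il21r* have long boxes over the start site in 1 line only, and the rows of *Il2rb* and *Kit* are empty.

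*Il2ra*, encoding CD25, carried a peak of 21.8-fold in Scid.adh.2C2 (percentile 54.0) at chr2:11641879-11646642. Its width of 4764 bp was at percentile 98.8 of the list, and it reached from 928 bp before the most upstream TSS to 3835 bp inside the gene. A second peak of 9.38-fold and 1239 bp followed in the first part of the gene body. In the pre-B line no peak reached the promoter window. Instead, 4 intronic peaks lay between 10595 bp and 21922 bp inside the gene, with heights of 9.35-, 8.25-, 7.82- and 15.04-fold, and none of them overlapped a peak of Scid.adh.2C2. The strongest spanned chr2:11661907-11664729, 2823 bp. A peak over the body of an unmarked gene was present for this 1 of 3 unmarked receptors in the pre-B line and for 5.3% of all unmarked genes. Upstream of the gene, both lines shared a peak with its summit 6958 bp (11.1-fold, Scid.adh.2C2) or 6954 bp (13.1-fold, pre-B line) before the start site. The 151 bases centred on the summit of the strongest intronic peak of the pre-B line are shown because this interval had H3K4me3 without a promoter peak at the gene. Capitals mark CpG, of which it held 3.
Il2ra intronic summit in the pre-B line, chr2:11663748-11663898, plus strand: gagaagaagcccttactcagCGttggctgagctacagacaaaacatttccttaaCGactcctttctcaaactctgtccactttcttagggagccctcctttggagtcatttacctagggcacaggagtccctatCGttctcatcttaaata

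*Il15ra*, the α chain of the IL-15 receptor, starts downstream of *Il2ra* and was marked in both lines. Its peak of 37.7-fold in Scid.adh.2C2 was the highest among the receptors, at percentile 96.3 of the list, and that of the pre-B line was 16.0-fold, at percentile 52.2. The ratio between the lines was 2.36, the median ratio over all genes marked in both was 1.25, and 97.2% of these genes had at most the ratio of *Il15ra*. The peaks were alike in place, with summits 3 bp apart and widths of 2127 bp and 2567 bp. Ranked by −log10 q in place of fold enrichment, they stood at percentiles 99.9 and 91.4. The Scid.adh.2C2 peak had an IDR score of 927, below the maximum of 1000 that every other promoter peak of the receptors reached. The promoter is printed here, with capitals for GGAA or TTCC, since it held 11 of these ETS cores, the most among the receptors.
Il15ra, chr2:11705043-11705342, plus strand: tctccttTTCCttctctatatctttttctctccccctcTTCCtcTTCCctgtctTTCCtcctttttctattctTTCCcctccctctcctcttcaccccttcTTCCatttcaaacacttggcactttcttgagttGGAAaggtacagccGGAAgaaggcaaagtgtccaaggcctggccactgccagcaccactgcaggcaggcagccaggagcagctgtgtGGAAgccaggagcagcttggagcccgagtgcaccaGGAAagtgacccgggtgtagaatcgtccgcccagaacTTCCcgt

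*Il2rb*, the β chain shared by the IL-2 and IL-15 receptors, had no peak over its promoter or gene body in either line. The nearest peak lay 33361 bp from a start site in Scid.adh.2C2, at the promoter of *C1qtnf6* (5.74-fold), and 14041 bp away in the pre-B line, between genes (14.0-fold). The peak-free stretch around the gene was 80268 bp in Scid.adh.2C2 and 60807 bp in the pre-B line. Of all unmarked genes, 72.0% in Scid.adh.2C2 against 85.5% in the pre-B line were at least as far from a peak. Thus, of the 3 chains of the IL-2 receptor, the α and γ chains were marked in Scid.adh.2C2 and only the γ chain in the pre-B line.

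*Il4ra* and *Il21r*, the ligand-binding chains of the receptors for IL-4 and IL-21, are neighbours and shared their state. In the pre-B line *Il4ra* carried a peak of 19.9-fold (percentile 67.8) at chr7:125551597-125556843, 5247 bp wide, and *Il21r* a peak of 19.4-fold (percentile 65.7) at chr7:125602773-125608777, 6005 bp wide. These widths were at percentiles 98.2 and 99.0 of the list. Another peak of 10.6-fold and 2775 bp lay 219 bp upstream of the wide *Il21r* peak, and intergenic peaks of 5.95- and 12.6-fold lay between the genes. In Scid.adh.2C2 a stretch of 138545 bp that included all of *Il4ra* and the promoter of *Il21r* held no peak. It ran from the promoter of *Nsmce1* (23.5-fold), 60137 bp from the nearest start site of *Il4ra*, to a 12.4-fold peak near the 3′ end of *Il21r*, in an exon of a non-coding transcript. This 3′ region also held a 3.82-fold peak in Scid.adh.2C2 and overlapped a peak of 7.05-fold in the pre-B line. *Il21r* was the 1 of 4 unmarked receptors in Scid.adh.2C2 with a peak over its body, against 4.45% of all unmarked genes. The promoters of this pair were unlike in sequence, with 25 CpG in *Il4ra* and 7 in *Il21r*, and *Il21r* was the only 1 of the 9 promoters without an ETS core, which 95.9% of all promoters held.

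**Figure D3:**
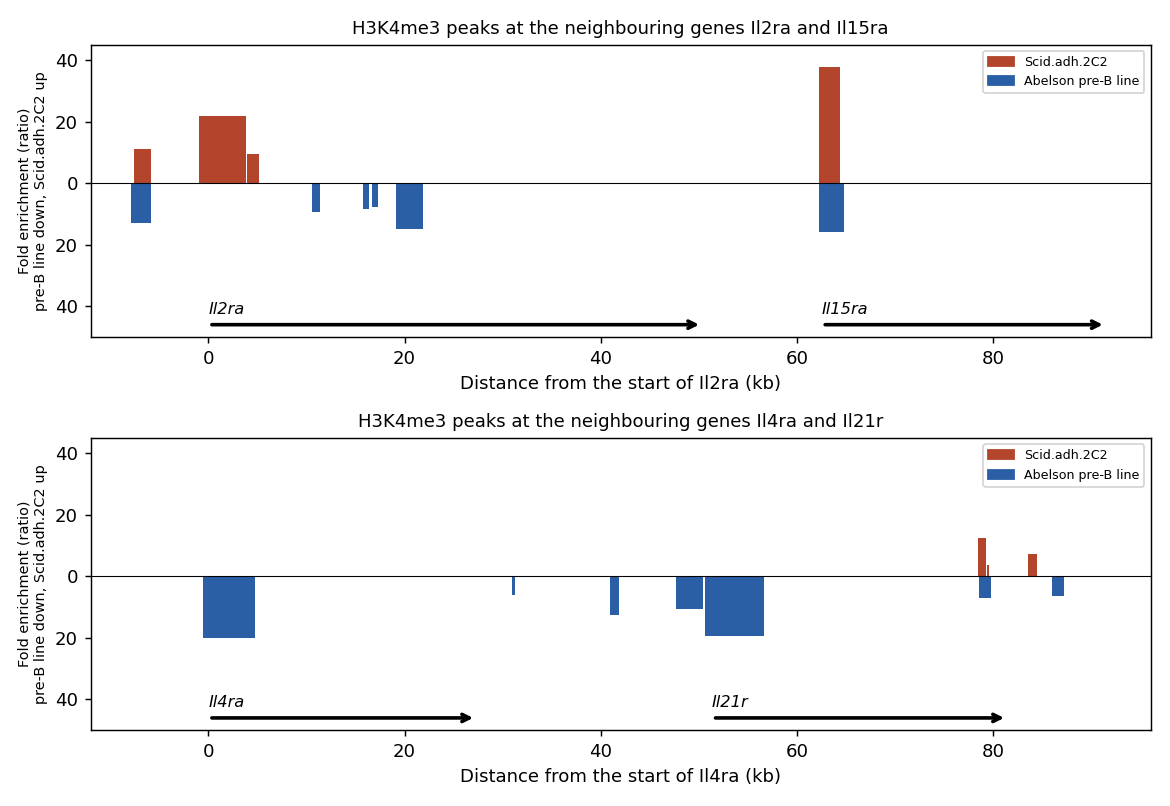
Peaks over the neighbouring pairs *Il2ra*-*Il15ra* (top) and *Il4ra*-*Il21r* (bottom), with the distance from the start of the first gene in kb (horizontal axis) and the fold enrichment as a ratio (vertical axis, Scid.adh.2C2 upward, pre-B line downward). Arrows show the genes. *Il15ra* is marked in both lines beside the 21.8-fold *Il2ra* peak of Scid.adh.2C2 alone, and both promoters of the lower pair are marked in the pre-B line alone.

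*Kit* was the receptor farthest from any peak. The nearest lay 142461 bp from an annotated start site in Scid.adh.2C2 (5.02-fold, between genes) and 490181 bp away in the pre-B line, at the promoter of *Srd5a3* (25.4-fold). The peak-free stretch holding the gene was 475087 bp in Scid.adh.2C2, where the median distance between neighbouring peaks was 31654.5 bp and 7.29% of such distances were at least as long. It was 1071330 bp in the pre-B line, where the median was 21201 bp and 2.62% were at least as long. These shares count each distance once, although a long stretch holds more of the genome. They therefore do not measure how rare the position of *Kit* is. Among unmarked genes, 40.1% in Scid.adh.2C2 against 16.4% in the pre-B line were at least as far from a peak as *Kit*.

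*Flt3*, in contrast, was marked in both lines, at heights below the first quartile of all marked genes. Its promoter peak was 17.4-fold and 1641 bp in Scid.adh.2C2 (percentile 42.4) and 14.4-fold and 1469 bp in the pre-B line (percentile 46.1), with summits 40 bp apart. A small peak of 6.91-fold and 552 bp lay upstream within the window in the pre-B line only. The lines also shared 2 peaks in the gene body. The first began 33312 bp inside the gene in Scid.adh.2C2 (14.6-fold) and 33322 bp inside it in the pre-B line (12.6-fold), and the second was 8.45-fold and 7.34-fold, respectively. Further gene body peaks of 8.04- and 8.39-fold were listed for the pre-B line only. Upstream of the gene, a shared peak with its summit 18379 bp (19.1-fold, Scid.adh.2C2) or 18264 bp (20.2-fold, pre-B line) from the start site was higher than the promoter peak itself in each line.

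The 3 receptors marked in 1 line only, *Il2ra*, *Il4ra* and *Il21r*, had peaks of large width and of middle fold enrichment percentile in their list. The share of such widths among all genes marked in 1 line only was not computed. Some lineage markers of that state also had large widths, such as *Gata3* (9343 bp, Scid.adh.2C2) and *Cd79a* (5606 bp, pre-B line). The other cytokine receptor chains of that state, described below, were narrower, at most 2527 bp (*Il12rb2*) and 4036 bp (*Csf2rb*), respectively. A peak was taken as wide at or above percentile 90 of the widths of its list, a limit chosen after the values were seen. By this limit *Il2ra* and *Il7r* were wide in Scid.adh.2C2, 2 of 6 marked receptors against 18.3% of all marked genes, and *Il4ra* and *Il21r* in the pre-B line, 2 of 7 against 20.5%. The *Il7r* peak of Scid.adh.2C2 was at percentile 94.7 and that of the pre-B line at percentile 79.97. The exact 95% intervals of the shares of wide receptors were 4.33% to 77.7% and 3.67% to 71.0%. They are too wide to set the receptors apart from all marked genes or to equate them. They also treat the neighbours *Il4ra* and *Il21r* as independent. For the remaining receptors the widest peak was between percentiles 45.8 and 78.6.

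**Figure D4:**
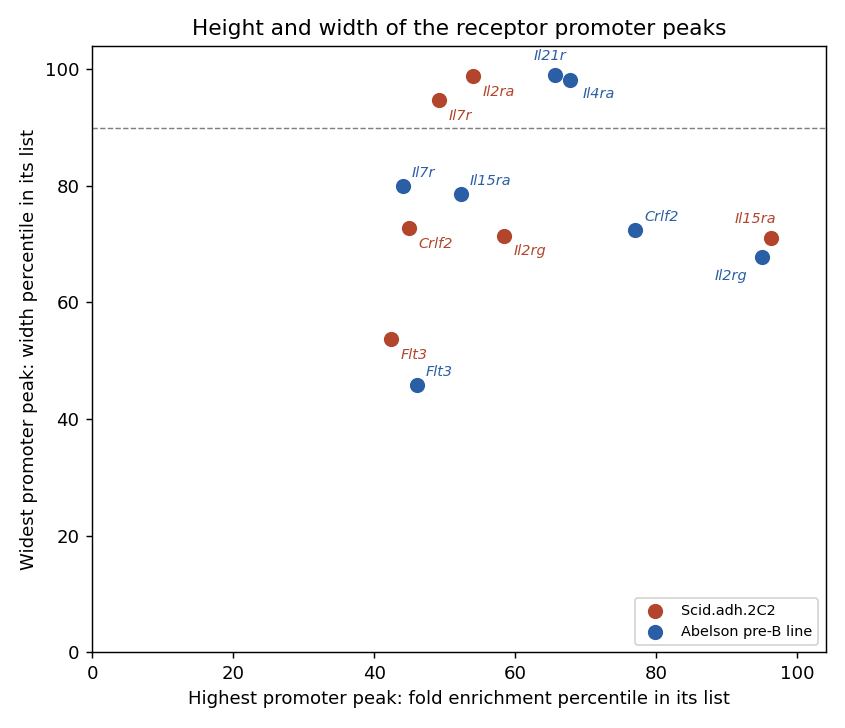
Percentile of the fold enrichment of the highest promoter peak (horizontal axis) against percentile of the width of the widest (vertical axis), each within the list of its line, for the 6 receptors marked in Scid.adh.2C2 and the 7 marked in the pre-B line. Points above the dashed line at percentile 90 are *Il2ra* and *Il7r* in Scid.adh.2C2 and *Il4ra* and *Il21r* in the pre-B line. All 4 are at middle percentiles of fold enrichment in their list. In contrast, *Il15ra* in Scid.adh.2C2 and *Il2rg* in the pre-B line are high and of moderate width.

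Other motifs were found in the 9 promoters as follows, on both strands and without any reading of binding. The E box CANNTG was in 6 (72.1% of all promoters), the RUNX motif TGTGGT in 4 (16.9%), the EBF motif CCCNNGGG in 2, *Il2rg* and *Kit* (13.4%), and the GATA motif AGATAA (11.4%) and the TATA box TATAAA (14.2%) in 0.

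The rest of the pathway was described with the same rule. Of 19 kinases, adaptors, STAT factors and feedback inhibitors downstream of these receptors, 17 were marked in both lines, and *Pik3r1* and *Stat3* had the highest summed percentiles of both lists. The other 2, *Socs1* (22.3-fold) and *Cish* (17.4-fold), which encode inhibitors induced by cytokine signals, were marked in the pre-B line only. Of 10 ligands, 5 were unmarked in both lines. *Tslp* (15.2-fold), *Il13* (11.3-fold) and *Il4* (10.2-fold) were marked in Scid.adh.2C2 only, *Il15* (9.68-fold) in the pre-B line only, and *Flt3l* in both (28.4-fold in Scid.adh.2C2 and 17.8-fold in the pre-B line).

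Of 24 other type I cytokine receptor chains, 12 were unmarked in both lines, near the 48.5% of all genes. In both lines 2 were marked, *Il27ra* and *Il6st*, against 42.2% of all genes. The 7 marked in the pre-B line only were led by *Il3ra* (28.0-fold), *Csf2ra* (22.9-fold) and *Csf2rb* (18.9-fold), which form the receptors for IL-3 and GM-CSF. The 3 marked in Scid.adh.2C2 only were *Il12rb2* (16.0-fold), *Il9r* (14.7-fold) and *Epor* (8.84-fold). Of 10 type II receptor chains, 5 were marked in both, near the 42.2% of all genes, with *Ifnar2* and *Il10rb* highest by summed percentiles. *Il10ra* (18.5-fold) and *Ifnlr1* (12.9-fold) were marked in the pre-B line only. All 3 other class III receptor tyrosine kinases were unmarked in both lines, as *Kit* was and *Flt3* was not.

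**Figure D5:**
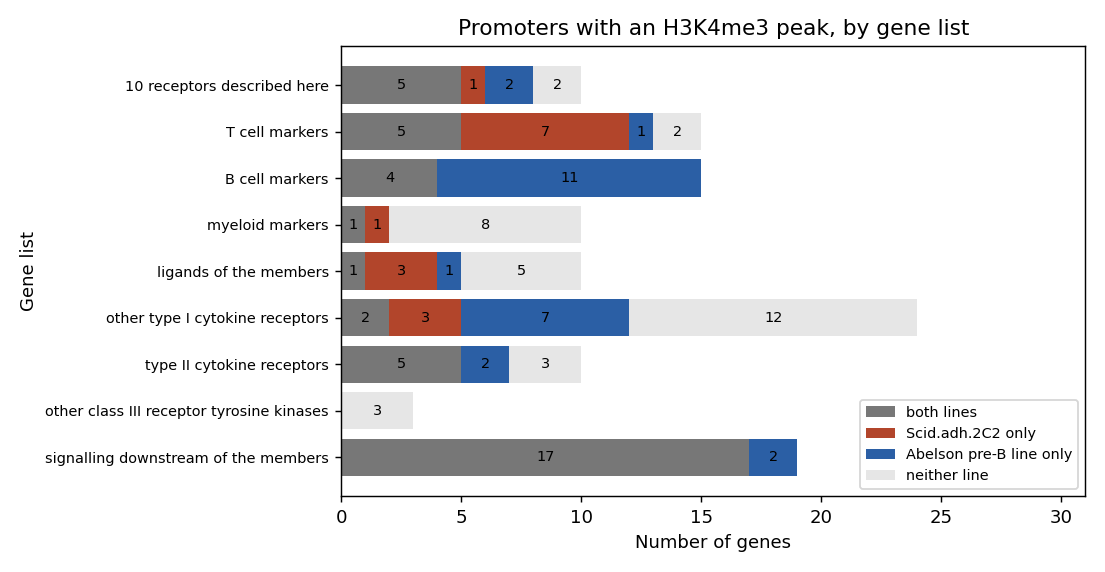
Number of genes (horizontal axis) of each list (vertical axis) with a promoter peak in both lines, in Scid.adh.2C2 only, in the pre-B line only or in neither. Of the 10 receptors 5 are marked in both lines, of the 24 other type I chains 2, of the 10 type II chains 5 and of the 19 signalling genes 17.

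Among these 3 receptor lists, the gene nearest to each member in the plane of its 2 list percentiles, with unmarked promoters set at 0, was *Ifngr2* for *Il7r* (9.65 percentile points away), *Il27ra* for *Crlf2* (3.06), *Il10rb* for *Il2rg* (22.0) and *Il12rb2* for *Il2ra* (15.1). It was *Ifnar2* for *Il15ra* (10.2), *Csf2rb* for both *Il4ra* (3.95) and *Il21r* (1.80), and *Il6st* for *Flt3* (10.8). *Il2rb* and *Kit* were tied with 18 unmarked genes, of which *Csf1r* is first by name. These distances are over 2 lists only and describe likeness in these values alone.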

How the data were processed

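H3K4me3 ChIP-seq of Scid.adh.2C2 and the Abelson pre-B line was analysed from 1 deposited peak list per line. The authors trimmed reads with Trim Galore 0.6.7, mapped them to mm10 (GRCm38) with Bowtie2 2.4.4, called peaks with MACS2 2.2.7.1 in narrow mode at a q-value of 0.05 against the input, and kept the optimal set at an IDR (irreproducible discovery rate) of 0.05 between 2 replicates. The deposited values are the IDR score, the fold enrichment (a ratio over background), the −log10 p and −log10 q values and the offset of the summit, and were used unchanged. The lists pool replicates and give no counts, so depth and replicate spread are unknown and no test was made. The input libraries entered only through the peak calling.

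Peaks were joined to GENCODE vM21 TSSs with Python 3.11.15, numpy 2.4.6, pandas 2.3.3 and scipy 1.17.1, and the functions were tested on simulated peaks. Figures were drawn with matplotlib 3.10.9. A peak over the gene and outside its promoter windows was a gene body peak. Percentiles are ranks among all peaks of a list. All 10 receptors are named. Of each other list the text names up to 3 genes marked in 1 line only by height, up to 2 marked in both by summed percentiles, the nearest receptor in percentiles, and neighbours with a shared or nearest peak. A gene that this rule selects is not reported here. The members and lists were chosen with earlier results of these data known. Alternatives were other windows, TSS sets, thresholds, overlap rules and list lengths.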

Additional observations from a re-analysis of the deposited data

How the results depend on the processing

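No paired analysis was possible because both replicates of a line were combined in 1 list and no test was made, and for the same reason no replicate could be left out. Counts of marked receptors were repeated over windows of 1000 bp and 5000 bp, other TSS sets, 10-fold and IDR thresholds, lists of equal length and other overlap rules. Of 45 such counts, 44 were within 1.5 times those reported. On counts this small, that limit lets most changes of 1 receptor pass. With a TSS required inside the peak, 2 receptors were marked in Scid.adh.2C2 only, *Il7r* joining *Il2ra*. The *Il7r* peak of the pre-B line holds no TSS, so this rule does not count it. Its edge lies less than 90 bp from the nearest annotated TSS, so this change rests on a short distance. With the highest IDR score required, *Il15ra* was lost in Scid.adh.2C2, leaving 4 receptors marked in both lines. *Il15ra* then counted among 3 receptors marked in the pre-B line only. Highest fold enrichments were the same in all 77 alternatives that gave a value. These alternatives changed only the window, the TSS set or the overlap rule and left the value of each peak as deposited, so little change was possible. *Il7r* in the pre-B line gave no value when a TSS was required inside the peak. Covered lengths moved in 26 of 52, and counts of gene body peaks in 10 of 40. Ranked by −log10 q, *Il7r* in Scid.adh.2C2 stood at percentile 86.2 in place of 49.2 and *Il2rg* in the pre-B line at 73.5 in place of 94.9; the cause was not tested. With wide peaks taken from percentile 95, a limit chosen after seeing the data, 1 receptor, *Il2ra*, was wide in Scid.adh.2C2.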
